A study of Arabidopsis thaliana with 21 samples.

Results

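The ethylene effect in imbibed seeds, taken as the log2 ratio of ethylene over water, was compared between 24 h and 16 h of imbibition. The measure is the difference between the 2 log2 ratios, called here the change of the ethylene effect: above 0, ethylene raised a gene more, or lowered it less, at 24 h than at 16 h, and below 0 the reverse. It was formed from 11 of the 21 libraries of the series: 3 of seeds imbibed with ethylene for 24 h, 3 in water for 24 h, 2 with ethylene for 16 h and 3 in water for 16 h. All were wild-type Arabidopsis thaliana seeds kept under long days, and the labels name no ecotype, seed age or dormancy state. Replicate 2 of ethylene at 16 h, as labelled, was not used, because its log counts correlated at 0.994 to 0.995 with the 3 water libraries of 16 h and at 0.904 to 0.909 with the other ethylene libraries of that time. Stranded polyA libraries were sequenced, and levels are counts scaled to library size with trimmed means (CPM).

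Ethylene is a gaseous hormone that is perceived by receptors of the endoplasmic reticulum, which act through CTR1 and EIN2 on the transcription factor EIN3 and its relatives. In seeds it acts against abscisic acid, the hormone that keeps seeds dormant and maintains the late-maturation programme of storage and desiccation-tolerance proteins, and on the same side as gibberellin, which drives embryo growth and the weakening of the endosperm. During germination the maturation transcripts are lost, storage oil is broken down through peroxisomal beta-oxidation and the glyoxylate cycle, walls are loosened, and the cell cycle and greening start.

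The 11 libraries held 11687100 to 21198600 reads on genes, and the 10 most abundant genes took 5.41 to 16.5% of them. The ethylene-responsive receptor gene ETR2 followed the labels at both times. It had 157, 159.5 and 153 CPM with ethylene and 22.4, 23.8 and 20.4 CPM in water at 24 h, against 187 and 176 CPM with ethylene and 17.9, 16.8 and 15.4 CPM in water at 16 h. Its ethylene libraries lay above its water libraries at each time. Storage protein transcripts, which mark the seed, had summed levels of 771 to 1130 CPM with ethylene at 24 h and 117600 to 129510 CPM in water at 24 h, against 8037 to 9455 CPM with ethylene at 16 h and 85843 to 107946 CPM in water at 16 h. In these samples of whole seeds, fewer cells of a type and less RNA per cell cannot be told apart. Whether replicates are separate seed lots is not in the labels, so p-values reflect only the spread among these samples, in part perhaps technical.

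Of 19091 genes tested, the change of the ethylene effect passed edgeR's quasi-likelihood test at an adjusted p of 0.05 in 7812 genes (40.9%), with 3884 above 0 (20.3%) and 3928 below 0 (20.6%). A change of at least 1 on the log2 scale was seen in 621 of those above 0 (3.25%) and 886 of those below 0 (4.64%). List counts given below are to be read against the shares of 20.3% above 0 and 20.6% below 0 over all genes. Ethylene differed from water in 84.2% of genes at 24 h, with 50.1% higher and 34.1% lower, and in 74.7% at 16 h, with 42.0% higher and 32.7% lower. The median size of the effect was 0.84 at 24 h and 0.60 at 16 h (log2). With the left-out library included, 2197 genes were above 0 and 2664 below 0. The split depended on scaling: without scaling factors 2961 genes were above 0 and 4690 below 0, and when genes had to reach 1 CPM in 3 libraries 2437 were above 0 and 5543 below 0, with the median of all genes at -0.11 against 0.02.

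Genes were sorted by what the effect did. It widened where ethylene acted in 1 direction at both times and more strongly at 24 h, which held for 2166 genes higher and 2402 genes lower with ethylene. It appeared in 811 genes higher and 518 genes lower, where the effect passed the test at 24 h and not at 16 h. It narrowed in 646 genes higher and 311 genes lower with ethylene at both times, and was no longer called at 24 h in 215 genes that had been higher and 336 that had been lower at 16 h. It reversed in 382 genes, of which 243 were higher with ethylene at 24 h and lower at 16 h, and 139 were lower at 24 h and higher at 16 h. In the plot of the 2 effects, CRA1 and EM1 lie low on both axes, where an effect already strong at 16 h was stronger at 24 h. Others far below 0, such as NAC047, lie high on both, where a higher level with ethylene narrowed. Once the left-out library was included, 0 genes were called narrowed in either direction, and reversed genes numbered 63 to higher and 32 to lower.

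**Figure D1:**
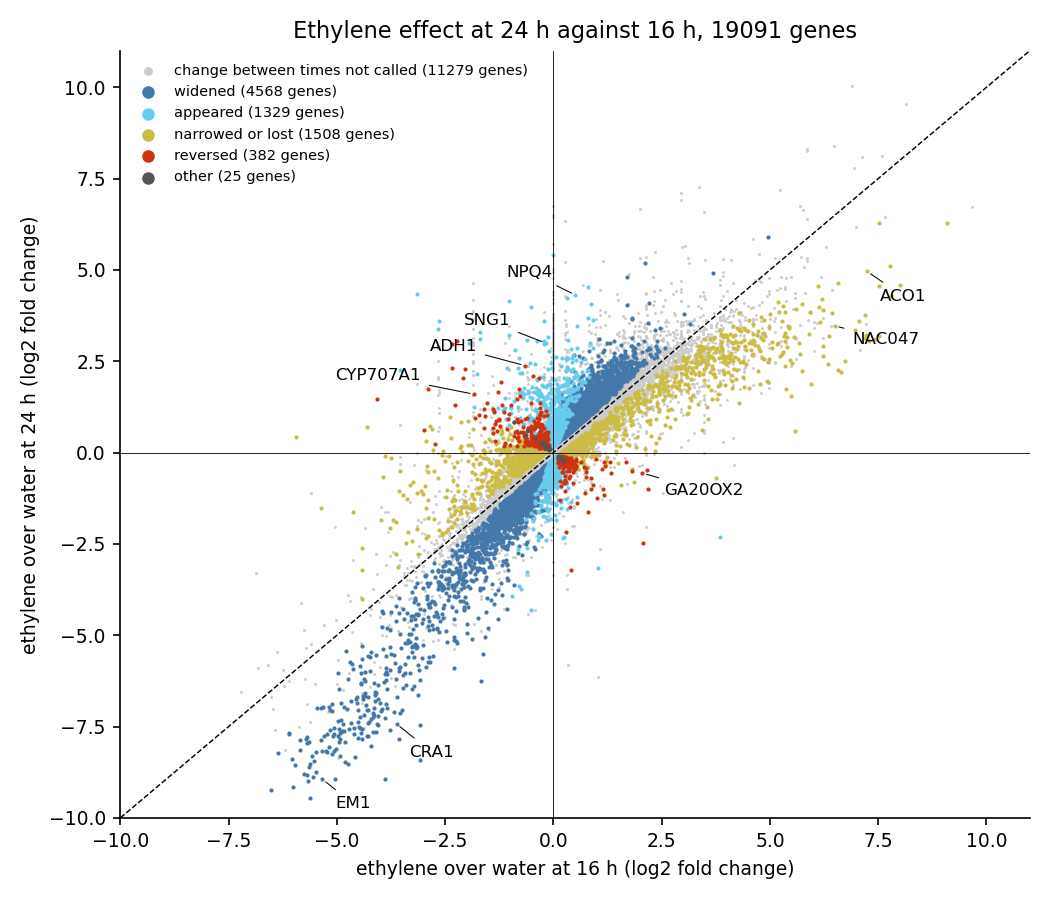
Each point is 1 of 19091 genes, with the log2 ratio of ethylene over water at 24 h on the vertical axis and at 16 h on the horizontal axis, coloured by class. Points off the dashed line of equal effects include EM1 and CRA1 far below it, ADH1 and CYP707A1 at the upper left, and GA20OX2 at the lower right.

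In most called genes the larger movement between the times lay in the ethylene-treated seeds. Among genes below 0, the level moved more between 16 and 24 h with ethylene than in water in 81.1%, and among genes above 0 in 79.1%. Among genes whose change of the ethylene effect was not called, this share was 60.7%. The median size of the movement over all genes was 0.42 with ethylene and 0.23 in water (log2). From 16 to 24 h, 68.8% of all genes changed with ethylene, with 36.4% higher and 32.5% lower at 24 h. In water 47.5% changed, with 24.2% higher and 23.3% lower at 24 h. Of the 3928 genes below 0, 1654 changed with time only with ethylene, 344 only in water, 1884 in both and 46 in neither. Of the 3884 genes above 0, these numbers were 1804, 529, 1478 and 73. Genes whose higher level narrowed were the exception: their median change from 16 to 24 h was -0.10 with ethylene and 0.62 in water, and the ethylene change was the larger in 39.9% of them. The bars of the median change by class show this, where the water bar is the longer in that class and the ethylene bar in the others.

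**Figure D2:**
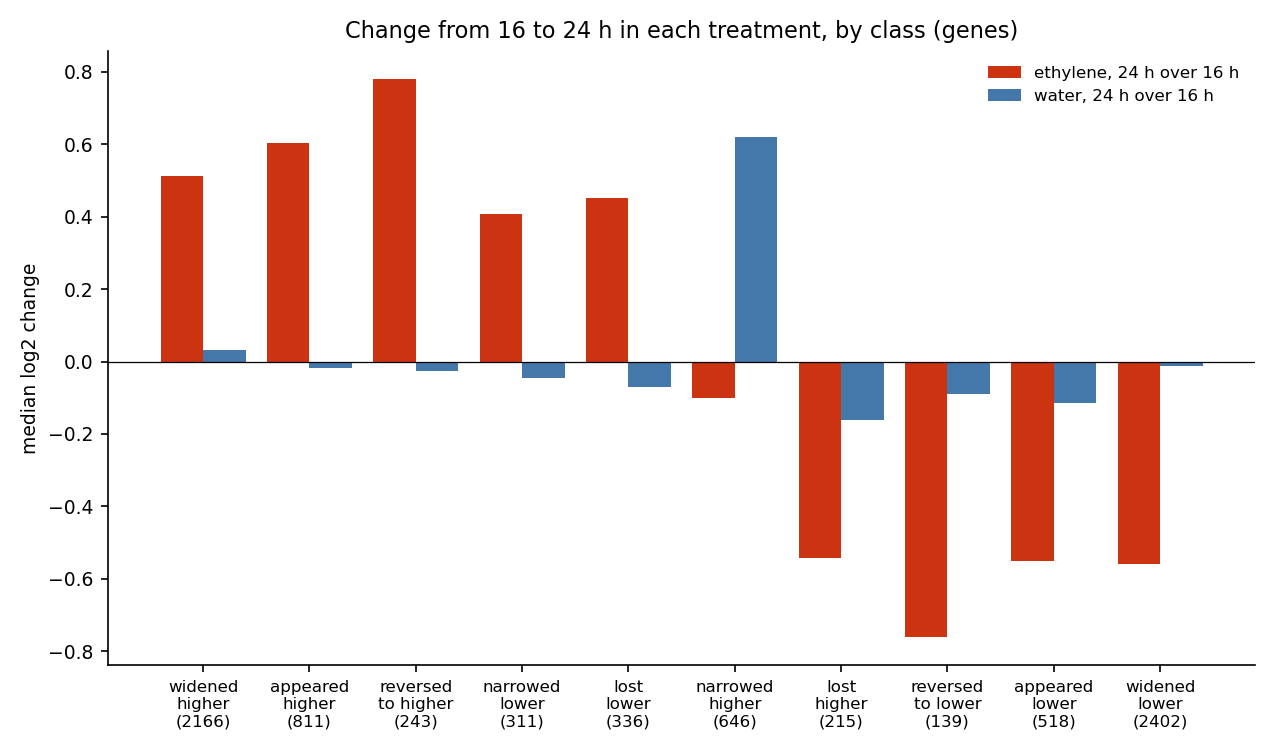
Bars give the median log2 change from 16 to 24 h over the genes of each class, with ethylene in red and in water in blue, and the number of genes below each class. In 9 of the 10 classes the ethylene bar is the longer, and in the class whose higher level narrowed the water bar is the longer, at 0.62 against -0.10 with ethylene.

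The lists of storage, late embryogenesis abundant and oil body proteins had lower medians than any other list described. All 9 storage protein genes tested were below 0, against 20.6% of all genes, with a median change of -2.82 against 0.02 over all genes. CRA1 (12S cruciferin, AT5G44120) had 374, 448 and 574 CPM with ethylene and 78859, 76736 and 84921 CPM in water at 24 h, against 5074 and 4352 CPM with ethylene and 51922, 57766 and 64443 CPM in water at 16 h. Its level with ethylene at 24 h was below that of every other library, and the change was -3.81 ± 0.14 (log2, SE; edgeR adjusted p = 2.2e-18). CRC, the cruciferin C gene (AT4G28520), had 241, 260.2 and 345 CPM with ethylene and 27512, 27146 and 29171 CPM in water at 24 h, against 2692 and 2274 CPM with ethylene and 18771, 21767 and 24279 CPM in water at 16 h. The change was -3.51. PAP85, a vicilin-like storage protein, and SESA5, a 2S albumin, changed by -3.14 and -2.82. In water the storage protein genes kept a high level at both times. From 16 to 24 h CRA1 and CRC moved by -3.34 and -3.14 with ethylene and by 0.47 and 0.37 in water (log2). Most of their widening thus lay in the ethylene-treated seeds. Over the 9 genes the median movement was -3.14 with ethylene and -0.24 in water.

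Of 15 genes for late embryogenesis abundant (LEA) proteins, which protect cells during drying, 12 were below 0 and 1 was above 0, with a median of -2.96. EM1, a group 1 LEA protein, had 3.57, 4.38 and 5.12 CPM with ethylene and 2277, 2012 and 2126 CPM in water at 24 h, against 51.8 and 41.3 CPM with ethylene and 1613, 1896 and 2118 CPM in water at 16 h. Its ethylene libraries did not overlap between the times, while its water libraries did, and the change was -3.61 ± 0.16 (edgeR adjusted p = 1.1e-16). EM6, of the same group, had 7.89, 4.29 and 3.84 CPM with ethylene and 2549, 2237 and 2505 CPM in water at 24 h, against 50.3 and 38.8 CPM with ethylene and 2021, 2246 and 2655 CPM in water at 16 h. The change was -3.12. The dehydrin gene RAB18 had 23.8, 16.1 and 19.2 CPM with ethylene and 4901, 4679 and 4681 CPM in water at 24 h, and 131 and 117 CPM with ethylene and 3358, 3844 and 4319 CPM in water at 16 h, with a change of -2.96. LEA18, ECP31, LEA4-5 and another dehydrin gene, LEA (AT2G21490), changed by -3.58, -3.33, -3.304 and -3.46. LEA14, the 1 gene above 0 (0.41), did not pass the test when any 1 of 6 libraries was left out, those being both ethylene 16 h libraries, ethylene 24 h replicates 2 and 3, water 16 h replicate 3 and water 24 h replicate 2.

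Oil body proteins coat the lipid droplets of the seed, and 4 of 5 of their genes were below 0. OLEO1, the main oleosin, had 16.6, 16.9 and 20.15 CPM with ethylene and 3107, 2805 and 3121 CPM in water at 24 h, against 218 and 181 CPM with ethylene and 3465, 3809 and 4346 CPM in water at 16 h. The change was -3.12 ± 0.12 (edgeR adjusted p = 2.8e-18). OLEO2, OLEO4 and the caleosin gene CLO1 changed by -2.77, -2.26 and -2.19. The seed aquaporin genes ALPHA-TIP and BETA-TIP and the peroxiredoxin gene PER1 showed the same pattern, with changes of -2.74, -2.52 and -2.71. ALPHA-TIP had 7.27, 6.82 and 9.25 CPM with ethylene and 1550.4, 1451 and 1603 CPM in water at 24 h, against 86.3 and 65.1 CPM with ethylene and 2002, 2187 and 2514 CPM in water at 16 h. Among the other genes with the largest negative change at a mean log2 CPM of at least 2 were AtMT4b, a seed metallothionein, at -3.79, the glutathione transferase gene GSTF3 at -3.42, and the embryo homeobox gene WOX2 at -3.54. WOX2 had 0.264, 0.277 and 0.0948 CPM with ethylene and 28.3, 27.2 and 31.7 CPM in water at 24 h, against 2.46 and 1.90 CPM with ethylene and 22.003, 25.6 and 26.7 CPM in water at 16 h, so its lowest libraries rest on few reads. Including the left-out library, the storage, oil body and LEA lists had 9, 4 and 12 genes below 0.

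**Figure D3:**
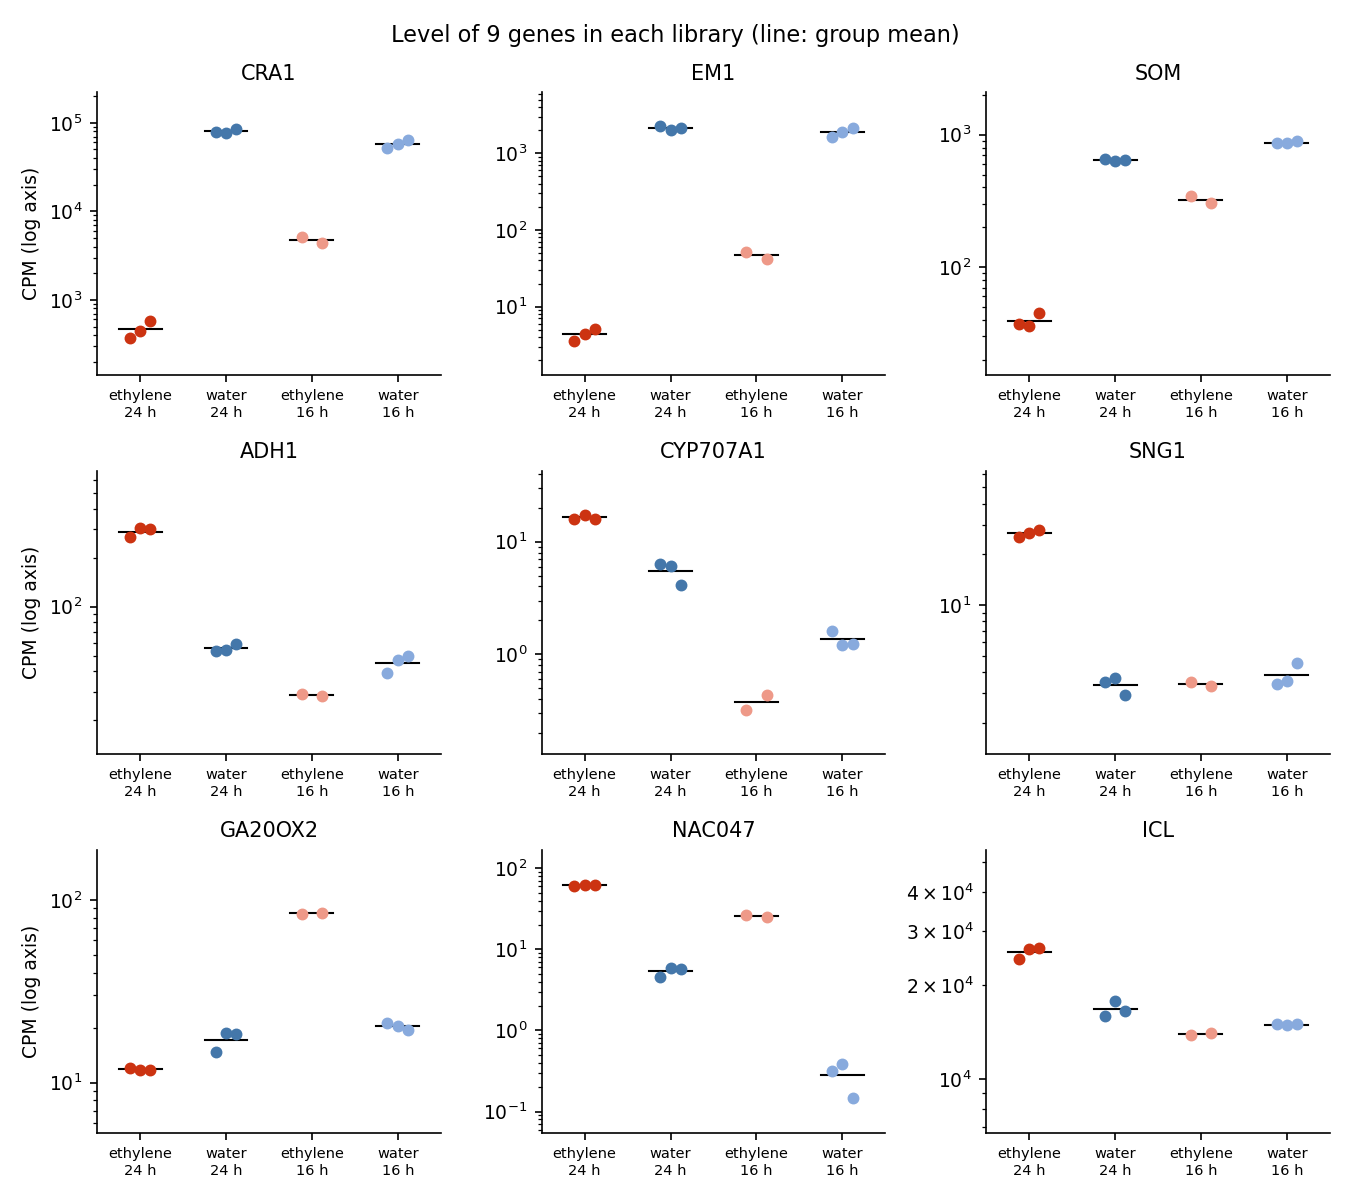
Each panel shows 1 gene, each point 1 library and each line a group mean, in CPM on a log axis, with ethylene and water at 24 h followed by ethylene and water at 16 h. The ethylene 24 h libraries of CRA1, EM1 and SOM sit lowest, those of ADH1, CYP707A1, SNG1 and ICL sit highest, and GA20OX2 is highest with ethylene at 16 h.

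Abscisic acid genes moved in several directions. Among 3 tested genes of abscisic acid 8'-hydroxylases, which inactivate the hormone, 2 were above 0. CYP707A1 had 16.04, 17.38 and 15.9 CPM with ethylene and 6.32, 6.09 and 4.14 CPM in water at 24 h, against 0.319 and 0.431 CPM with ethylene and 1.62, 1.22 and 1.23 CPM in water at 16 h. It was above water at 24 h (1.60 on the log2 scale, edgeR adjusted p = 3.5e-12) and below water at 16 h (-1.83, edgeR adjusted p = 2.8e-05), a change of 3.43 ± 0.36. CYP707A3 had 15.73, 15.72 and 13.6 CPM with ethylene and 4.59, 4.65 and 4.03 CPM in water at 24 h, against 2.23 and 2.15 CPM with ethylene and 1.25, 1.28 and 1.28 CPM in water at 16 h, and its higher level with ethylene widened by 0.98. CYP707A2, the isoform known for the early fall of abscisic acid in imbibed seeds, had 3.26, 3.73 and 1.75 CPM with ethylene and 19.3, 18.8 and 21.0 CPM in water at 24 h, against 6.34 and 4.74 CPM with ethylene and 34.3, 35.6 and 33.7 CPM in water at 16 h. It was lower with ethylene at both times, and its change of -0.11 did not pass the test (edgeR adjusted p = 0.75).

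Of 28 abscisic acid signalling genes, 13 were below 0 and 1 above 0, with a median of -0.22. ABI5, a bZIP factor that activates LEA genes, had 21.7, 24.01 and 22.1 CPM with ethylene and 256, 268 and 257 CPM in water at 24 h, against 64.6 and 60.1 CPM with ethylene and 212, 234 and 231 CPM in water at 16 h. Its change was -1.67 ± 0.08 (edgeR adjusted p = 4.3e-16). AHG1, a seed protein phosphatase 2C, had 5.16, 4.29 and 5.26 CPM with ethylene and 136, 126 and 131 CPM in water at 24 h, against 22.2 and 19.0 CPM with ethylene and 141, 143 and 147 CPM in water at 16 h and a change of -1.93. DPBF2, another seed bZIP gene, was at 0.264 to 1.64 CPM throughout and reversed to lower, by -2.13. The receptor gene PYL6 was higher with ethylene at both times and narrowed by -1.75. It had 46.6, 43.4 and 45.5 CPM with ethylene and 4.85, 5.93 and 4.94 CPM in water at 24 h, against 45.0 and 50.2 CPM with ethylene and 1.72, 2.27 and 1.04 CPM in water at 16 h, and from 16 to 24 h it moved by -0.08 with ethylene and 1.67 in water (log2). Of 7 abscisic acid synthesis genes, 3 were below 0 and 1 above 0. NCED5, for the dioxygenase of the committed step, changed by -1.94, the zeaxanthin epoxidase gene ABA1 by -0.54, and ABA2, for a later dehydrogenase, by 1.04. NCED9 changed by -0.82 (edgeR adjusted p = 0.044), which did not pass without any 1 of 6 libraries, with -0.58 without ethylene 24 h replicate 3 as the smallest.

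Dormancy regulators were below 0 in 8 of 9 genes tested, with 0 above 0 and a median of -0.73. SOM, a zinc finger protein that represses germination in the dark, had 37.1, 36.0 and 45.1 CPM with ethylene and 652, 634 and 645 CPM in water at 24 h, against 344 and 302 CPM with ethylene and 859, 861 and 895 CPM in water at 16 h. At 24 h its ethylene libraries were lower than every other library, and the change was -2.599 ± 0.09 (edgeR adjusted p = 1.9e-18). RDO5, a phosphatase-like dormancy factor, had 13.0, 16.1 and 15.98 CPM with ethylene and 116, 117 and 123 CPM in water at 24 h, against 65.0 and 62.4 CPM with ethylene and 135, 139.7 and 142 CPM in water at 16 h and a change of -1.86. MFT changed by -0.95. DOG1, the main dormancy gene, was near the detection limit in these libraries, with 0, 0 and 0.0474 CPM with ethylene and 0.693, 0.481 and 0.956 CPM in water at 24 h, against 0.182 and 0.172 CPM with ethylene and 0.418, 0.610 and 0.592 CPM in water at 16 h, so no ratio is given. DAG1, a Dof factor, changed by -0.73, which did not pass without ethylene 16 h replicate 3 (-0.65), ethylene 24 h replicate 2 (-0.63) or water 16 h replicate 3 (-0.63). When the left-out library was included, 6 dormancy regulators and 9 abscisic acid signalling genes were below 0.

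Upstream sequences of 4 of these genes are shown, 2 from the widened lower class (CRC, EM6) and 2 from the class reversed to higher (ADH1, described below with the low-oxygen genes, and CYP707A1). Each is the 250 bases before the annotated start of the locus, 5′ to 3′ on the strand of the gene, from RefSeq's TAIR10.1 assembly. The regions are chr4:14087306-14087555 on the plus strand for CRC, chr2:16780369-16780618 on the minus strand for EM6, chr1:28975005-28975254 on the plus strand for ADH1 and chr4:10521009-10521258 on the plus strand for CYP707A1. Capitals mark ACGTG, the core of abscisic acid response elements and of the G-box CACGTG, and CATGCA, the core of the RY element of seed genes, on either strand.
CRC: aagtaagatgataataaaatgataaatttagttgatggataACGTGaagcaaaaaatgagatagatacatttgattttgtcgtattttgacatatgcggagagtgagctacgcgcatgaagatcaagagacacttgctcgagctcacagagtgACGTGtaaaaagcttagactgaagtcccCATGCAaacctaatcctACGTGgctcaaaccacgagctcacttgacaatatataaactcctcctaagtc
EM6: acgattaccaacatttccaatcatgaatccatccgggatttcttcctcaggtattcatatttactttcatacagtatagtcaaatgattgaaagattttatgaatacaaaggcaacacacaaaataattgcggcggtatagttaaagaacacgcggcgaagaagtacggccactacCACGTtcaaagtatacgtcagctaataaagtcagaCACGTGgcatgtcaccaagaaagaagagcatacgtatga
ADH1: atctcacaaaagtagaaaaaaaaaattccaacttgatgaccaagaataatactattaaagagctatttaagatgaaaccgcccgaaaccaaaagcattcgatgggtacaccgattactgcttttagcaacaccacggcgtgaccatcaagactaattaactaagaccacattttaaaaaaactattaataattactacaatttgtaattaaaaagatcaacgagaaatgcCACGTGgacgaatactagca
CYP707A1: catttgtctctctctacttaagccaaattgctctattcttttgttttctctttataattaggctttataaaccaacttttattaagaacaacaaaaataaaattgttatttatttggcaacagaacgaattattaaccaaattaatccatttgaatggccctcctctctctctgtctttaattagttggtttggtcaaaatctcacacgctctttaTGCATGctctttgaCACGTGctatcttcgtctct
The CRC region holds 3 matches to ACGTG and 1 to CATGCA, and the EM6 region 2 matches to ACGTG, of which 1 is a CACGTG. The ADH1 and CYP707A1 regions hold 1 CACGTG each near the start of the gene, and that of CYP707A1 holds 1 match to CATGCA on the other strand. Over 250 bases before to 50 after the start, ACGTG was found in 41.2% of the 884 genes at least 1 log2 below 0, in 38.0% of the 621 genes at least 1 log2 above 0 and in 27.3% of the 19025 tested genes with such a window. For CACGTG, every match of which also counts as ACGTG, these shares were 18.8%, 10.3% and 9.11%. For CATGCA they were 18.6%, 9.98% and 8.30%. A match describes letters and is not evidence of a bound site.

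The reversed genes include several of the largest positive changes. ADH1 (alcohol dehydrogenase, AT1G77120) had 266, 303 and 299 CPM with ethylene and 53.3, 54.2 and 58.7 CPM in water at 24 h, against 29.2 and 28.0 CPM with ethylene and 39.1, 47.0 and 49.3 CPM in water at 16 h. At 24 h the ethylene libraries lay above every other library and at 16 h below, so that an effect of 2.38 at 24 h (edgeR adjusted p = 5.6e-23) stood against -0.66 at 16 h (edgeR adjusted p = 6.8e-08), a change of 3.04 ± 0.11. ANNAT1, an annexin that binds membranes in the presence of calcium, had 16.9, 16.1 and 20.7 CPM with ethylene and 15.9, 15.2 and 14.5 CPM in water at 24 h, against 3.92 and 2.71 CPM with ethylene and 20.7, 21.3 and 24.1 CPM in water at 16 h. Its ethylene libraries of 16 h stood far below all others, while at 24 h the ethylene effect was small (0.24), and its change was 2.98. The protein kinase gene WNK3 (AT3G48260) had 17.1, 17.3 and 14.7 CPM with ethylene and 10.2, 9.94 and 10.4 CPM in water at 24 h, against 1.41 and 1.29 CPM with ethylene and 3.82, 4.27 and 4.29 CPM in water at 16 h. The change was 2.29.

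In the opposite direction, GA20OX2, a gibberellin 20-oxidase gene, had 11.99, 11.8 and 11.8 CPM with ethylene and 14.6, 18.6 and 18.4 CPM in water at 24 h, against 83.9 and 84.8 CPM with ethylene and 21.1, 20.5 and 19.3 CPM in water at 16 h. The 2 ethylene libraries of 16 h were the highest, and the ethylene libraries of 24 h the lowest, with a change of -2.62 ± 0.11 (edgeR adjusted p = 3.3e-17). AOP3 (AT4G03050), a glucosinolate side-chain gene, had 5.38, 7.19 and 8.25 CPM with ethylene and 8.23, 10.6 and 9.50 CPM in water at 24 h, against 36.3 and 40.8 CPM with ethylene and 8.73, 8.43 and 8.63 CPM in water at 16 h. GBSS1, granule-bound starch synthase, had 23.8, 25.9 and 24.7 CPM with ethylene and 53.4, 60.7 and 52.0 CPM in water at 24 h, against 56.4 and 61.9 CPM with ethylene and 28.6, 26.3 and 24.6 CPM in water at 16 h, so that in water it was higher at 24 h than at 16 h while with ethylene it was lower. ERF2, an ethylene response factor gene, had 2.56, 2.81 and 3.604 CPM with ethylene and 12.8, 12.1 and 15.5 CPM in water at 24 h, against 14.1 and 13.7 CPM with ethylene and 10.2, 10.7 and 13.0 CPM in water at 16 h, and was lower with ethylene at 24 h by -2.18 (log2). AOP3, GBSS1 and ERF2 changed by -2.63, -2.32 and -2.48. With the left-out library included, ANNAT1 did not pass the test (1.45, edgeR adjusted p = 0.14), and the other reversed genes named here did.

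Among genes with a symbol, a mean log2 CPM of at least 2 and at least 10 counts in each group, SNG1 (sinapoylglucose:malate sinapoyltransferase, AT2G22990) had the largest change of those whose effect appeared at 24 h. It had 25.4, 26.9 and 27.9 CPM with ethylene and 3.46, 3.69 and 2.92 CPM in water at 24 h, against 3.47 and 3.32 CPM with ethylene and 3.40, 3.55 and 4.49 CPM in water at 16 h. The 8 libraries other than ethylene 24 h spanned 2.92 to 4.49 CPM, and the change was 3.17 ± 0.19 (edgeR adjusted p = 8.2e-14). MUM4, a rhamnose synthase gene of mucilage and wall pectin, had 30.7, 30.6 and 33.4 CPM with ethylene and 9.70, 9.84 and 10.7 CPM in water at 24 h, against 7.11 and 7.11 CPM with ethylene and 7.63, 7.76 and 6.56 CPM in water at 16 h and a change of 1.68. EXT3, an extensin of the cell wall, had 43.6, 47.9 and 47.3 CPM with ethylene and 7.88, 9.57 and 6.21 CPM in water at 24 h, against 0.866 and 0.646 CPM with ethylene and 0.627, 0.554 and 0.197 CPM in water at 16 h; it rose with time in both treatments and its change was 1.83. Lower at 24 h alone were NRT1.8 (nitrate transporter), OBP1 (a Dof transcription factor), UCN (a protein kinase) and UGT74E2 (a glucosyltransferase acting on an auxin precursor). NRT1.8 had 11.1, 11.6 and 10.5 CPM with ethylene and 47.0, 50.6 and 56.6 CPM in water at 24 h, against 46.8 and 43.6 CPM with ethylene and 44.9, 45.0 and 50.9 CPM in water at 16 h. The change was -2.17, and the other 3 changed by -1.75, -1.71 and -1.69.

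Some effects were called at 16 h and not at 24 h. Higher with ethylene at 16 h only were AHL20 (-1.34), WNK2 (-1.12), LSH3 (-1.06) and TMAC2 (-1.04). AHL20, an AT-hook DNA-binding protein, had 9.87, 7.93 and 7.82 CPM with ethylene and 7.36, 7.70 and 7.43 CPM in water at 24 h, against 18.6 and 17.1 CPM with ethylene and 6.22, 6.26 and 6.02 CPM in water at 16 h, so 1 group of 2 libraries stood above the rest. Lower with ethylene at 16 h only were CPK29 (1.59), GSTF7 (1.40), TK1a (1.27) and MCA2 (1.199). TK1a, a thymidine kinase, had 12.2, 11.6 and 11.997 CPM with ethylene and 10.998, 10.7 and 12.2 CPM in water at 24 h, against 9.44 and 10.1 CPM with ethylene and 20.6, 21.3 and 25.2 CPM in water at 16 h. Once the left-out library was included, WNK2 passed the test and the other 7 did not, with adjusted p from 0.055 (CPK29) to 0.46 (GSTF7).

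Gibberellin genes were mostly below 0. Of 10 synthesis genes, 8 were below 0 and 0 above, with a median of -0.93. GA3OX2, a gene of the step that makes active gibberellin, had 19.1, 19.7 and 21.9 CPM with ethylene and 2.08, 2.03 and 1.43 CPM in water at 24 h, against 15.004 and 15.2 CPM with ethylene and 0.366, 0.277 and 0.395 CPM in water at 16 h. Its effect of 3.47 at 24 h and 5.42 at 16 h narrowed by -1.94, with a smaller movement with ethylene (0.42) than in water (2.36). GA3OX1 had 26.3, 27.2 and 13.9 CPM with ethylene and 3.20, 5.51 and 4.72 CPM in water at 24 h, against 26.1 and 27.6 CPM with ethylene and 3.03, 2.27 and 1.97 CPM in water at 16 h. The change was -1.19 (edgeR adjusted p = 0.004). GA20OX3 was lower with ethylene at both times and widened by -1.55, and GA1, of the first committed step, changed by -2.26 at 0.332 to 1.46 CPM. GA2OX2, which inactivates gibberellin, had 0.705, 0.830 and 0.759 CPM with ethylene and 21.6, 24.8 and 22.3 CPM in water at 24 h, against 3.42 and 2.54 CPM with ethylene and 20.12, 17.5 and 18.15 CPM in water at 16 h. The change was -2.26.

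Of 13 gibberellin signalling and response genes, 8 were below 0 and 0 above. Genes for DELLA proteins, the repressors of gibberellin responses, differed in pattern. GAI and RGA1 were lower with ethylene at 24 h (-0.79 and -0.56) and had no called effect at 16 h (-0.04 and 0.07). GAI had 88.4, 81.2 and 78.1 CPM with ethylene and 149.99, 142 and 138 CPM in water at 24 h, against 234 and 202 CPM with ethylene and 223, 219 and 229 CPM in water at 16 h. RGL2, the main DELLA of seed germination, was lower at both times and changed by -0.36. RGL1 was higher with ethylene at both times (2.73 at 24 h and 3.56 at 16 h), and its change of -0.83 did not pass without water 24 h replicate 2 (-0.64, edgeR adjusted p = 0.076). GASA4, a gibberellin-stimulated peptide gene, had 84.8, 85.8 and 92.8 CPM with ethylene and 29.8, 22.2 and 23.3 CPM in water at 24 h, against 4.65 and 4.65 CPM with ethylene and 0.575, 0.499 and 0.0986 CPM in water at 16 h; both treatments were higher at 24 h, water by more. Including the left-out library, 4 synthesis genes and 4 signalling genes were below 0.

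Of 14 ethylene perception and signalling genes, 7 were below 0 and 0 above, with a median of -0.21; the effect narrowed in 4 of them, widened in 2 and appeared in 1. The receptor genes ETR2 and ERS2 narrowed by -0.63 and -0.91. ERS2 had 23.2, 22.1 and 22.2 CPM with ethylene and 19.4, 19.2 and 17.996 CPM in water at 24 h, against 33.1 and 31.6 CPM with ethylene and 13.3, 14.6 and 15.2 CPM in water at 16 h. EIN3, the central transcription factor, and RAN1, the copper transporter that the receptors need, were lower with ethylene and widened by -0.57 and -0.36. EIN3 had 141, 148 and 140.3 CPM with ethylene and 359.6, 383 and 400.3 CPM in water at 24 h, against 236 and 235 CPM with ethylene and 404, 430.4 and 431 CPM in water at 16 h.

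Of 15 ethylene-induced genes 8 were below 0 and 2 above, with a median of -1.03. EDF1, a transcription factor of the RAV family, had 30.8, 29.7 and 29.4 CPM with ethylene and 4.76, 4.22 and 3.08 CPM in water at 24 h, against 24.1 and 26.2 CPM with ethylene and 1.41, 1.28 and 0.838 CPM in water at 16 h, and narrowed by -1.49. OSR1, of the organ size family, had 114, 109.7 and 128 CPM with ethylene and 1.04, 2.19 and 1.11 CPM in water at 24 h, against 192 and 188 CPM with ethylene and 0.732, 1.11 and 1.23 CPM in water at 16 h, and its change of -1.24 did not pass without water 24 h replicate 2 (-0.78, edgeR adjusted p = 0.094). ERF1, a direct target of EIN3, had 0.0441, 0.184 and 0.142 CPM with ethylene and 0.0866, 0.321 and 0.159 CPM in water at 24 h, against 4.51 and 4.57 CPM with ethylene and 0.261, 0.333 and 0.395 CPM in water at 16 h. Its only libraries above 1 CPM were those of ethylene at 16 h, and the other groups rest on too few reads for a ratio. ARGOS, which desensitises cells to ethylene, had 40.0, 30.2 and 33.7 CPM with ethylene and 0.260, 0.428 and 0.425 CPM in water at 24 h, against 17.8 and 19.8 CPM with ethylene and 0.0523, 0.111 and 0.0986 CPM in water at 16 h, and its change did not pass the test (edgeR adjusted p = 0.21). ERF5 was above 0 (1.49), with 5.29, 5.30 and 5.60 CPM with ethylene and 0.866, 0.748 and 1.49 CPM in water at 24 h, against 1.14 and 1.21 CPM with ethylene and 0.627, 0.776 and 0.543 CPM in water at 16 h. The count above 0 was 1 without any 1 of 9 libraries, and 2 without ethylene 24 h replicate 1 or water 16 h replicate 2.

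Ethylene synthesis genes split. ACO1, an ACC oxidase of the last step, had 894, 998 and 989 CPM with ethylene and 30.1, 35.5 and 26.9 CPM in water at 24 h, against 421 and 447 CPM with ethylene and 4.60, 2.33 and 1.68 CPM in water at 16 h. Its effect was 4.96 at 24 h and 7.25 at 16 h (log2), and narrowed by -2.29. ACO4 was at 0.428 to 1.76 CPM and higher with ethylene at 24 h only, with a change of 1.73. Of 6 genes tested 2 were above 0 and 1 below, and the count below 0 was 2 without water 16 h replicate 2. When the left-out library was included, 1 perception gene and 2 ethylene-induced genes were below 0, and ETR2, ACO1, EDF1 and OSR1 did not pass.

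Several other genes that were higher with ethylene at both times narrowed. NAC047, a senescence-related NAC factor, had 60.5, 62.2 and 61.8 CPM with ethylene and 4.59, 5.93 and 5.79 CPM in water at 24 h, against 26.7 and 24.9 CPM with ethylene and 0.314, 0.388 and 0.148 CPM in water at 16 h. Its level at 24 h was higher in both treatments, by 1.25 with ethylene and 4.28 in water (log2), so the change was -3.03 ± 0.28 (edgeR adjusted p = 1.2e-09). DIN10, a dark-inducible gene of the raffinose synthase family, had 909, 961 and 887 CPM with ethylene and 115, 128 and 105 CPM in water at 24 h, against 789 and 798 CPM with ethylene and 23.3, 12.1 and 11.6 CPM in water at 16 h, and moved by 0.21 with ethylene and 2.89 in water (log2). RD21B and RD21A, papain-type vacuolar proteases, changed by -2.39 and -2.06. RD21A had 495, 547 and 532 CPM with ethylene and 56.3, 59.1 and 46.6 CPM in water at 24 h, against 129 and 141 CPM with ethylene and 6.38, 1.72 and 1.82 CPM in water at 16 h. BETA-VPE, a vacuolar processing enzyme of seeds, differed: it was lower with ethylene and widened by -1.26. Among 6 vacuolar protease genes, 4 were below 0. Water 16 h replicate 1 lay above replicates 2 and 3 in DIN10, RD21A and RD21B, and not in NAC047. With the left-out library included, none of NAC047, DIN10, RD21A and RD21B passed (edgeR adjusted p = 0.19, 0.18, 0.35 and 0.24), and BETA-VPE did (-2.18).

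In genes that were lower with ethylene and narrowed, the effect at 24 h was smaller and still called. SEP2 (AT2G21970, a stress-enhanced protein of the light-harvesting family) had 6.83, 6.22 and 7.68 CPM with ethylene and 10.4, 10.4 and 9.24 CPM in water at 24 h, against 1.37 and 1.25 CPM with ethylene and 9.04, 9.48 and 10.7 CPM in water at 16 h. ChiC, a chitinase, had 8.24, 9.22 and 9.67 CPM with ethylene and 10.998, 10.7 and 10.1 CPM in water at 24 h, against 3.10 and 3.27 CPM with ethylene and 17.7, 17.9 and 18.7 CPM in water at 16 h. The hexose transporter gene STP13 had 8.95, 12.2 and 14.6 CPM with ethylene and 29.6, 30.5 and 25.6 CPM in water at 24 h, against 2.37 and 2.11 CPM with ethylene and 21.7, 23.6 and 25.01 CPM in water at 16 h. In all 3 the ethylene libraries of 16 h stood below all others, and the changes were 2.36, 2.28 and 2.119. AFP3, which binds abscisic acid factors, changed by 1.53. Once the left-out library was included, none of the 4 passed.

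Wall-loosening genes were mostly higher with ethylene at both times. All 11 xyloglucan endotransglucosylase/hydrolase (XTH) genes were higher at 24 h and at 16 h, and of 12 expansin genes 11 were higher at 24 h, against 9 higher and 1 lower at 16 h. Over all genes 50.1% were higher with ethylene at 24 h and 42.0% at 16 h. Of the XTH genes, which cut and rejoin xyloglucan, 7 were below 0 and 1 above, with a median of -0.77. XTH33 had 24.6, 26.3 and 25.8 CPM with ethylene and 5.46, 5.61 and 3.88 CPM in water at 24 h, against 32.3 and 28.9 CPM with ethylene and 1.202, 0.443 and 0.592 CPM in water at 16 h; its ethylene libraries moved by -0.26 and its water libraries by 2.71 (log2) from 16 to 24 h. XTH4 and XTH9 narrowed by -1.93 and -1.39, and XTH5 widened by 1.17. Of the expansin genes, whose proteins loosen walls without hydrolysis, 5 were below 0 and 3 above. EXPA1 had 524, 539.9 and 498 CPM with ethylene and 63.4, 97.0 and 64.7 CPM in water at 24 h, against 753 and 779.8 CPM with ethylene and 69.7, 52.5 and 32.1 CPM in water at 16 h. EXPA8 and EXPA10 narrowed by -0.97 and -0.66, and EXPA4 reversed to higher by 1.38. EXPA2, an expansin of the endosperm, had 685, 777 and 711 CPM with ethylene and 88.5, 119 and 79.2 CPM in water at 24 h, against 266 and 276 CPM with ethylene and 76.3, 50.1 and 31.7 CPM in water at 16 h. Its change of 0.55 (edgeR adjusted p = 0.047) did not pass without any 1 of 8 libraries and was smallest, 0.18, without water 16 h replicate 1. Including the left-out library, 0 XTH genes and 0 expansin genes were below 0.

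Called genes of wall synthesis were mostly above 0. Of 8 genes of primary wall cellulose synthesis, 7 were above 0 and 1 below, against 20.3% above 0 over all genes, and the median was 0.55. COB, a glycosylphosphatidylinositol-anchored protein of cellulose orientation, had 119, 124 and 126 CPM with ethylene and 54.4, 56.2 and 53.4 CPM in water at 24 h, against 45.2 and 46.9 CPM with ethylene and 43.5, 41.0 and 41.9 CPM in water at 16 h. Its change was 1.04 ± 0.07 (edgeR adjusted p = 1.6e-12). The cellulose synthase gene CESA6 had 133, 144 and 136 CPM with ethylene and 78.5, 86.9 and 83.8 CPM in water at 24 h, against 75.8 and 73.3 CPM with ethylene and 71.7, 72.6 and 72.0 CPM in water at 16 h; its effect was 0.72 at 24 h and 0.05 at 16 h. CESA5 and KOR1, a membrane endoglucanase, changed by 0.59 and 0.55. The 1 gene below 0, CESA2 (-0.23), was named after its values were seen and did not pass without ethylene 16 h replicate 1, ethylene 24 h replicate 1 or water 16 h replicate 1. Of 13 xylem and secondary wall genes, 4 were above 0 and 1 below, with a median of 0.98. Of these 13 genes, 8 had few reads in at least 1 group, so the median is uncertain. It was 0.71 with the filter of 1 CPM in 3 libraries. CESA7, a cellulose synthase of secondary walls, changed by 0.98, at 2.11 to 5.95 CPM. Tubulin genes were above 0 in 6 of 14 and below 0 in 2, with 0.83 for TUB4, 0.77 for TUB7 and 0.74 for TUB6. The count of tubulins below 0 was 0 without water 16 h replicate 3. When the left-out library was included, 7 cellulose synthesis genes and 5 tubulin genes were above 0.

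Genes of the epidermis and cuticle were above 0 in 7 of 14 and below in 1, with a median of 0.54. LCR (LACERATA, AT2G45970), a cytochrome P450 of the CYP86A family that hydroxylates fatty acids for cutin, had 26.4, 23.5 and 24.9 CPM with ethylene and 7.36, 5.88 and 4.62 CPM in water at 24 h, against 1.96 and 1.68 CPM with ethylene and 2.56, 2.61 and 2.42 CPM in water at 16 h. CYP86A2 had 14.9, 14.5 and 15.8 CPM with ethylene and 5.63, 5.35 and 4.72 CPM in water at 24 h, against 1.46 and 1.81 CPM with ethylene and 2.98, 2.88 and 2.56 CPM in water at 16 h, and CYP86A4 had 24.5, 24.7 and 23.4 CPM with ethylene and 9.01, 7.97 and 6.64 CPM in water at 24 h, against 3.06 and 3.92 CPM with ethylene and 5.17, 3.66 and 4.44 CPM in water at 16 h. These 3 enzymes of 1 family changed by 2.57, 2.31 and 1.98, and in each the ethylene libraries of 24 h were the highest. LTP2, a lipid transfer protein of the epidermis, had 745, 784 and 866 CPM with ethylene and 399.8, 396 and 368 CPM in water at 24 h, against 98.0 and 88.6 CPM with ethylene and 172, 182 and 215 CPM in water at 16 h, which was above water at 24 h and below it at 16 h, with a change of 2.07 ± 0.10 (edgeR adjusted p = 1.5e-15). LTP1 changed by 1.42 and PDF1, an epidermal marker, by 0.92. The count below 0 was 4 without water 16 h replicate 1, 2 without ethylene 24 h replicate 2, and 2 without water 24 h replicate 1 or replicate 3.

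Of 14 phenylpropanoid and flavonoid genes, 7 were above 0 and 2 below, with a median of 0.79. The genes named by size were at low level: TT4 (chalcone synthase) at 0.160 to 1.15 CPM changed by 2.50, and PAL1 (phenylalanine ammonia-lyase) at 0.474 to 1.66 CPM by 1.95. PAL4 had 1.89, 2.07 and 1.85 CPM with ethylene and 14.2, 14.2 and 16.5 CPM in water at 24 h, against 9.17 and 7.80 CPM with ethylene and 18.1, 17.5 and 18.7 CPM in water at 16 h, and was lower with ethylene at both times, with a change of -1.85. F3H, a flavanone hydroxylase, changed by 1.43, which did not pass without ethylene 16 h replicate 3 (1.03). The count below 0 was 1 without ethylene 16 h replicate 3, water 16 h replicate 2 or 3, or water 24 h replicate 2. With the left-out library included, 5 epidermal genes and 2 phenylpropanoid genes were above 0.

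**Figure D4:**
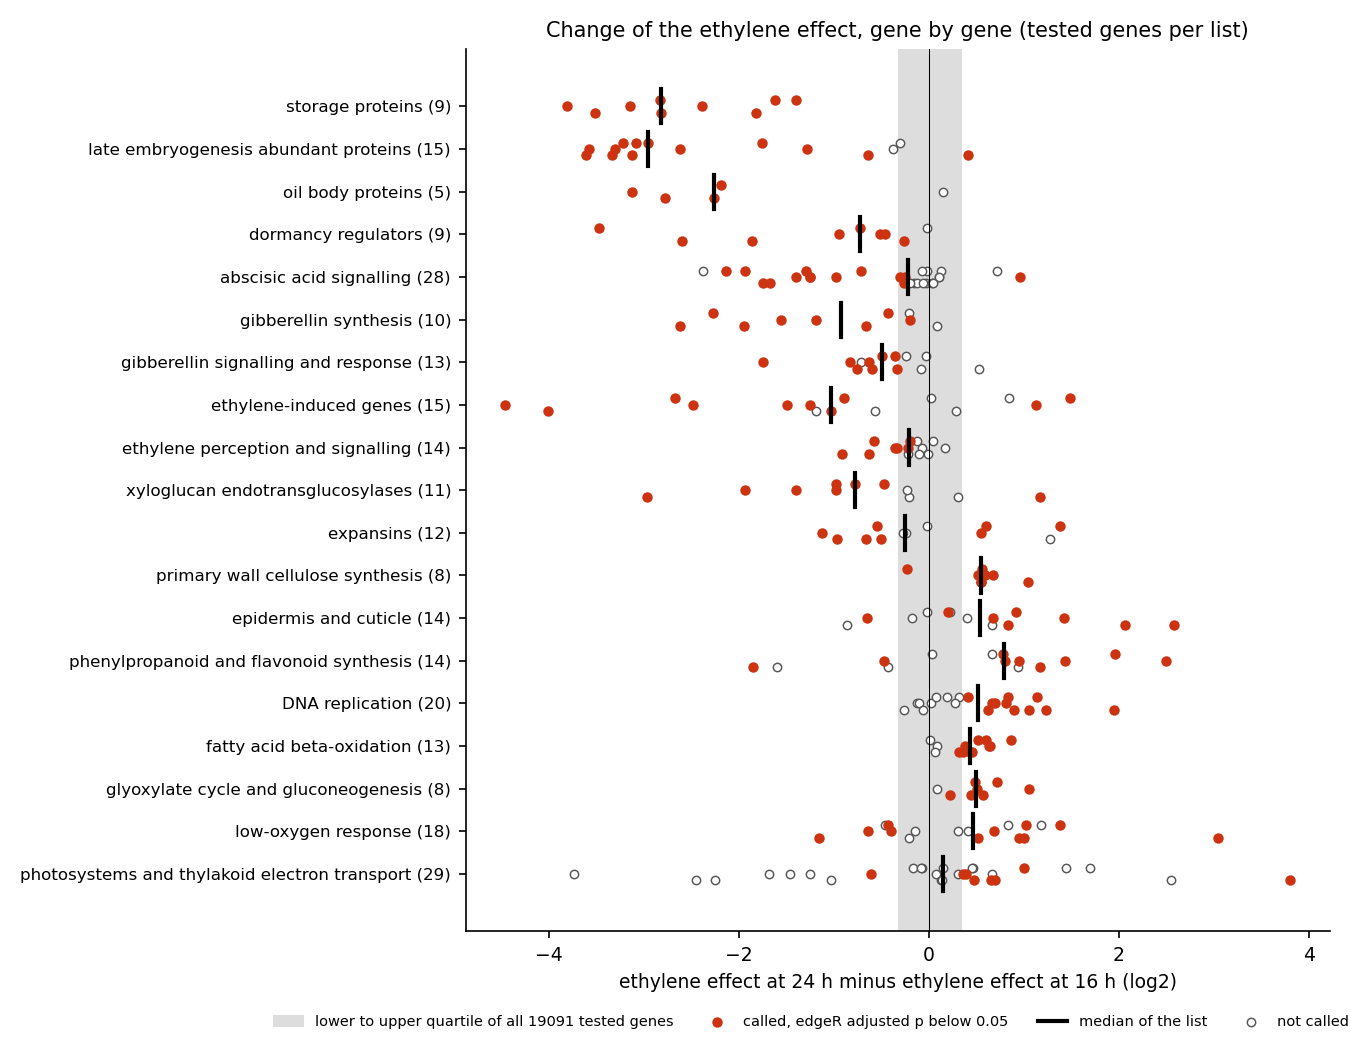
Each point is a tested gene of the list named at the left, placed by the change of its ethylene effect from 16 to 24 h on the log2 scale, red where it passed edgeR's test. Black bars are list medians and the grey band runs from the lower to the upper quartile of all 19091 genes, -0.31 to 0.33; storage, LEA and oil body medians lie far to its left.

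DNA replication genes were mostly higher with ethylene at both times. At 24 h this held for 19 of 20, against 50.1% of all genes, and at 16 h for 18 of 20, against 42.0%. The effect widened in 9 of the DNA replication genes. Of these 20 genes, 11 were above 0 and 0 below, with a median of 0.52. ETG1, a replisome factor, had 31.2, 35.0 and 31.0 CPM with ethylene and 8.05, 9.14 and 6.69 CPM in water at 24 h, against 11.2 and 12.8 CPM with ethylene and 6.59, 5.65 and 6.07 CPM in water at 16 h and a change of 1.05. FAS1, of the chromatin assembly factor CAF-1, changed by 1.14. TSO2, the small subunit of ribonucleotide reductase, had 93.6, 90.9 and 94.98 CPM with ethylene and 64.0, 68.7 and 58.6 CPM in water at 24 h, against 96.0 and 91.9 CPM with ethylene and 254, 241 and 250.1 CPM in water at 16 h. Its level moved by -0.01 with ethylene and -1.96 in water from 16 to 24 h (log2), so that the effect was 0.55 at 24 h and -1.40 at 16 h. PCNA1, the sliding clamp of DNA polymerase, had 39.2, 41.9 and 46.1 CPM with ethylene and 6.24, 6.41 and 5.15 CPM in water at 24 h, against 12.9 and 12.6 CPM with ethylene and 1.88, 1.11 and 1.43 CPM in water at 16 h, and its change of -0.26 did not pass the test (edgeR adjusted p = 0.33).

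Of 18 mitosis genes, 11 had few reads in at least 1 group, which limits the test for them. Mitosis genes passed in 2 of 18 above 0 and 1 below. AUR2, an aurora kinase, changed by 0.97, and CYCB1;1, a mitotic cyclin, by -0.10, which did not pass (edgeR adjusted p = 0.74). Of the 2 counts, the first was 1 without ethylene 24 h replicate 3, water 16 h replicate 3 or water 24 h replicate 2, and the second was 0 without ethylene 16 h replicate 3, water 16 h replicate 1 or 2, or water 24 h replicate 2. D-type cyclins, which drive entry into the cycle, were above 0 in 4 of 8, and in 2 without replicate 1 of either 16 h group or replicate 3 of ethylene at 16 h. CYCD3;2 had 76.5, 72.7 and 75.2 CPM with ethylene and 39.6, 42.9 and 37.2 CPM in water at 24 h, against 44.3 and 45.9 CPM with ethylene and 30.1, 28.1 and 28.5 CPM in water at 16 h. The change was 0.26, and 0.24 without ethylene 16 h replicate 1. It did not pass without scaling factors (0.20, edgeR adjusted p = 0.063) or with at least 1 CPM in 3 libraries (0.14, edgeR adjusted p = 0.17). CYCD1;1 and CYCD2;1 did not pass in either of these settings. Once the left-out library was included, 5 DNA replication genes and 0 D-type cyclins were above 0.

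Genes of storage oil breakdown were mostly above 0. Of 13 beta-oxidation genes, 10 were above 0 and 0 below, with a median of 0.43, and of 8 glyoxylate cycle and gluconeogenesis genes 7 were above 0 and 0 below, with a median of 0.50. MFP2, the multifunctional protein of beta-oxidation, had 3048, 3192 and 3058 CPM with ethylene and 990.2, 1135 and 1013 CPM in water at 24 h, against 2044 and 2057 CPM with ethylene and 1144, 1101 and 1009.7 CPM in water at 16 h. Its change was 0.65 ± 0.07 (edgeR adjusted p = 6.6e-08). ACX3 (acyl-CoA oxidase) and KAT2 (3-ketoacyl-CoA thiolase) changed by 0.64 and 0.60. ICL, isocitrate lyase of the glyoxylate cycle, had 24354, 26132 and 26447 CPM with ethylene and 15967, 17788 and 16553 CPM in water at 24 h, against 13846 and 14041 CPM with ethylene and 14992, 14857 and 15037 CPM in water at 16 h. Its effect was 0.61 at 24 h (edgeR adjusted p = 1.2e-12) and -0.10 at 16 h, which did not pass (edgeR adjusted p = 0.084), a change of 0.71 ± 0.07. CSY3, a peroxisomal citrate synthase, and the malate dehydrogenases PMDH1 and PMDH2 changed by 0.51, 0.57 and 1.05. These changes were smaller than those of the storage protein genes, and from 16 to 24 h the water levels of MFP2 and ICL moved by -0.05 and 0.16 (log2). Including the left-out library, 7 and 4 genes of these lists were above 0.

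Of 18 low-oxygen response genes, 7 were above 0 and 4 below, with a median of 0.46. Beside ADH1, PDC1 (pyruvate decarboxylase, the step before ADH1 in fermentation) had 113, 112 and 102 CPM with ethylene and 15.2, 15.1 and 12.4 CPM in water at 24 h, against 28.6 and 30.2 CPM with ethylene and 9.62, 9.98 and 10.1 CPM in water at 16 h. The change was 1.38 ± 0.11 (edgeR adjusted p = 9.7e-11). SRO5, a small poly(ADP-ribose) polymerase-like protein, changed by 1.03. Of the group VII ethylene response factors, which sense oxygen through their stability, RAP2.3, RAP2.2 and RAP2.12 were below 0, at -1.16, -0.43 and -0.40. RAP2.3 had 291, 336 and 338 CPM with ethylene and 1699, 1669 and 1669.8 CPM in water at 24 h, against 694 and 703 CPM with ethylene and 1562, 1601 and 1733 CPM in water at 16 h, and it was lower with ethylene at both times. When the left-out library was included, the counts were 7 above and 3 below.

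Of 14 genes of reactive oxygen enzymes, 4 were above 0 and 5 below. The superoxide dismutase genes FSD1 and CSD1 widened by 1.48 and 0.58, and the catalase gene CAT3 was lower with ethylene and widened by -0.97. FSD1 had 149.8, 149 and 159 CPM with ethylene and 32.5, 32.4 and 27.2 CPM in water at 24 h, against 29.1 and 32.7 CPM with ethylene and 19.1, 15.6 and 16.8 CPM in water at 16 h. Of 12 aquaporin genes 3 were above 0 and 5 below, and the count below was 3 without ethylene 16 h replicate 3. The plasma membrane aquaporin genes PIP2A and PIP2B were higher with ethylene at 24 h only, with changes of 1.501 and 2.42, beside the seed tonoplast forms given above. PIP2A had 20.18, 21.5 and 23.1 CPM with ethylene and 4.59, 4.44 and 8.55 CPM in water at 24 h, against 1.73 and 1.68 CPM with ethylene and 1.25, 1.22 and 1.53 CPM in water at 16 h.

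Greening genes were uneven, and single water libraries stood apart in LHCB5 and PORB. Of 29 photosystem and thylakoid genes, 7 were above 0 and 1 below, with a median of 0.15. NPQ4, the photoprotection protein PsbS, had 8.55, 9.31 and 10.5 CPM with ethylene and 0.606, 0.321 and 0.531 CPM in water at 24 h, against 0.365 and 0.431 CPM with ethylene and 0.261, 0.166 and 0.395 CPM in water at 16 h. The change was 3.80 ± 0.60 (edgeR adjusted p = 9.1e-06). LHCB5, a light-harvesting protein of photosystem II, had 2.69, 1.66 and 3.13 CPM with ethylene and 0.866, 1.60 and 52.2 CPM in water at 24 h, against 0.456 and 0.172 CPM with ethylene and 0.418, 0.665 and 0.444 CPM in water at 16 h. Water 24 h replicate 3 stood apart from the other 2 water libraries of that time, and the change of -2.25 (edgeR adjusted p = 0.53) became 1.61 (edgeR adjusted p = 0.033) without it. Without that library 11 photosystem genes were above 0, and without water 24 h replicate 2 the count below was 3. Counts of the Rubisco small subunit genes are uncertain, since these are near-identical copies. RBCS2B had 196, 191 and 209 CPM with ethylene and 46.2, 43.9 and 50.4 CPM in water at 24 h, against 56.3 and 60.6 CPM with ethylene and 3.24, 2.16 and 2.91 CPM in water at 16 h; it narrowed by -2.31, as RBCS3B did by -0.92. FBA1, a chloroplast aldolase, was lower with ethylene at 24 h only (-1.07). PORB, which reduces protochlorophyllide in light, had 194, 199 and 201 CPM with ethylene and 30.3, 26.6 and 27.0 CPM in water at 24 h, against 10.7 and 12.02 CPM with ethylene and 0.836, 0.222 and 0.197 CPM in water at 16 h, and narrowed by -1.91, or by -2.89 without water 16 h replicate 1. Calvin cycle genes were above 0 in 5 of 15 and below in 3, and chlorophyll synthesis genes in 5 of 17 and 3. Over all genes 20.3% were above 0 and 20.6% below. With the left-out library included, 2 photosystem genes were above 0, and PORB, RBCS2B and RBCS3B did not pass.

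Markers of other seed tissues were mixed. Of 3 endosperm marker genes tested 1 was above 0 and 1 below, and their summed level was 732 to 933 CPM with ethylene and 5635 to 6165 CPM in water at 24 h, against 1998 to 2250 CPM with ethylene and 10045 to 11571 CPM in water at 16 h. EPR1, an extensin-like gene of the endosperm that makes up nearly all of that sum, changed by -0.64. MAN7, an endo-mannanase, had 81.4, 90.2 and 74.5 CPM with ethylene and 64.1, 64.8 and 57.4 CPM in water at 24 h, against 52.0 and 48.0 CPM with ethylene and 78.8, 71.3 and 64.3 CPM in water at 16 h, and reversed to higher by 0.92. Of 5 seed coat genes listed, only MUM2 and MUM4 reached the minimum count, and both were above 0. MUM4 is also a gene of wall pectin, as given above. Their summed level was 36.9 to 40.8 CPM with ethylene and 13.0 to 14.1 CPM in water at 24 h. At 16 h it was 7.8 to 8.0 CPM with ethylene and 8.5 to 9.5 CPM in water. None of 3 shoot meristem genes tested (CLV3, KNAT1 and STM) passed. Their part in the results above was not tested.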

How the data were processed

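The deposited values were raw counts of reads per gene made with STAR. The submitters' processing notes name STAR and the build TAIR10. No STAR version, annotation release or trimming step is named in the labels. The reverse-strand counts of 37336 genes were used, and forward counts made up 2.72 to 3.60% of the gene reads. Summary lines (2.55 to 5.51% of reads) were left out. Symbols came from a reference table of TAIR10.1, which matched 37051 genes and gave the upstream sequences by locus; the counts carry no coordinates. Reads of near-identical copies (Rubisco small subunits, tubulins, glutathione transferases) may be lost or split.

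Counts were tested with edgeR 4.0.16 (R 4.3.3, quasi-likelihood F test, 2-sided, TMM scaling, minimum count 10, total 15), in 1 fit of 17 imbibed libraries, the 6 h groups included because they add to the estimate of spread, with Benjamini-Hochberg adjustment over 19091 genes. The biological coefficient of variation was 0.0436. The SE of a log2 value was its absolute value divided by √F. The code was tested on simulated counts. DESeq2 1.42.0, other scalings, filters and thresholds, and leaving out each library were alternatives.

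Named genes were the 8 largest changes each way and 4 per class among genes of mean log2 CPM of at least 2, up to 4 called genes per list, all with at least 10 counts in each group, and fixed sentinels. The comparison, the 53 lists and the rule were chosen with earlier results of these data known. For the ribosomal list the selection was written as a match on product names after the reference was in hand. A few results are not reported here.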

Additional observations from a re-analysis of the deposited data

Results flagged for a closer look

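The results given here are differences between the ethylene effects of 2 times, and in each the difference itself was tested, by the interaction term of the edgeR fit. The counts that met this rule were 3884 genes with a change above 0, 3928 below 0, 243 reversed to higher with ethylene at 24 h and 139 reversed to lower.

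Among genes named in the text, those whose ethylene effect had opposite directions at the 2 times, each passing the test, are listed with the change of the effect on the log2 scale. Higher with ethylene at 24 h and lower at 16 h were the abscisic acid 8'-hydroxylase gene CYP707A1 (3.43), ADH1 (3.04), ANNAT1 (2.98), the cutin-related P450 genes LCR (2.57) and CYP86A2 (2.31), the chalcone synthase gene TT4 (2.50), the kinase gene WNK3 (2.29), the mucilage beta-galactosidase gene MUM2 (2.25), LTP2 (2.07), PAL1 (1.95), TSO2 (1.95), the expansin gene EXPA4 (1.38) and the endo-mannanase gene MAN7 (0.92). Lower at 24 h and higher at 16 h were AOP3 (-2.63), GA20OX2 (-2.62), ERF2 (-2.48), GBSS1 (-2.32), GA1 (-2.26), DPBF2 (-2.13), DWF4 (-0.74), NUC-L1 (-0.41), PHYA (-0.40) and PES (-0.31), of a nucleolar ribosome assembly factor. The changes of ANNAT1, TT4, PAL1 and EXPA4 did not pass with the left-out library included (edgeR adjusted p = 0.14, 0.15, 0.12 and 0.059). TT4 and PAL1 were also at low level, as given above. In 3 of the listed genes 1 of the 2 effects was small and nearer the threshold. These were LCR at 16 h (-0.47, edgeR adjusted p = 0.049), ERF2 at 16 h (0.30, edgeR adjusted p = 0.026) and ANNAT1 at 24 h (0.24, edgeR adjusted p = 0.023). No group held 4 libraries, so single libraries were not tested for standing apart from their group.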

How the results depend on the processing

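Of the 7812 genes called, 6183 to 7801 were called with the same direction under each other scaling, filter, strand setting, library choice and tool, apart from the left-out library, with which the number was 4777, and the stricter thresholds. No setting called a gene in the opposite direction, except counts on either strand (2 genes). With the library labelled ethylene 16 h replicate 2 included, the counts were 2197 above 0, 63 reversed to higher and 32 reversed to lower. Without scaling factors 138 and 278 genes reversed to higher and to lower, and 38.7% of called genes were above 0 against 49.7%. With at least 1 CPM in 3 libraries 2437 genes were above 0, 30.5% of those called. An adjusted p of 0.01 gave 138 reversed to higher and 82 to lower, and a change of at least 1 on the log2 scale gave 621 above 0, 886 below 0, 103 reversed to higher and 38 to lower. As each library was left out, 3079 to 3760 genes were above 0, 3258 to 3894 below 0, 172 to 244 reversed to higher and 98 to 142 to lower. Calls were fewest when either ethylene 16 h library was dropped, which left 1 library in that group, assumed to vary like the other groups. DESeq2 called 3130 genes above 0 and 3658 below 0, and the 11 libraries alone gave 3322 and 4172. The causes were not tested.

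Replicate numbers did not pair the samples: over 15 pairs the correlations of same-numbered libraries ran from -0.053 to 0.084. With a replicate block, 3746 genes were above 0 and 3865 below 0, and 232 and 141 reversed. Among named genes, 4 that passed the test in the fit reported or in the other setting changed sign in 1 setting each. When the left-out library was included, HSP22.0 was at -0.040, AOS at -1.10 and JAZ1 at 0.0026, and LHCB5 ran from -2.83 to 1.61 as each library was left out, above 0 without water 24 h replicate 3. Of all values for named genes in other settings, 4519 stayed on their side of the threshold, 246 no longer passed and 1 newly passed. Of the 4519, 5 changed sign, all in genes that did not pass (CYP707A2, PCNA1 and CYCB1;1). Of the named genes, 78 no longer passed when that library was included. Genes under about 1 CPM in a group are limited by depth.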

Other observations

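Hormone lists beside abscisic acid, gibberellin and ethylene were mixed. Of 7 brassinosteroid synthesis and signalling genes, 5 were below 0 and 1 above, with a median of -0.72. ROT3, a cytochrome P450 of brassinosteroid synthesis, had 10.9, 10.05 and 10.2 CPM with ethylene and 49.4, 48.8 and 50.3 CPM in water at 24 h, against 32.4 and 29.8 CPM with ethylene and 56.8, 57.7 and 54.3 CPM in water at 16 h, and was lower with ethylene at both times, with a change of -1.40 ± 0.09 (log2, SE; edgeR adjusted p = 4.5e-13). BR6OX2, for the last oxidation steps, narrowed by -1.35, DWF4, for an earlier hydroxylase, reversed to lower by -0.74, and the transcription factor gene BZR1 widened by 0.74. Of 24 auxin response and transport genes, 3 were above 0 and 5 below, against 20.3% and 20.6% of all genes. The auxin counts ranged over 2 to 4 above and 3 to 5 below as each library was left out. LBD18, a lateral organ boundary factor, widened by 1.60. Of 6 type-A cytokinin response regulator genes, 1 was above 0 (ARR4, 0.94). Of 8 jasmonate genes, 2 were above 0 and 1 below, and their median of 0.04 was -0.03 without scaling factors. AOC3, an allene oxide cyclase, was lower with ethylene at 16 h only, with a change of 1.47. BR6OX2, BZR1, ARR4 and AOC3 did not pass with the left-out library included (edgeR adjusted p = 0.22, 0.078, 0.062 and 0.35).

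Sugar and stress lists held genes of both directions. Of 5 raffinose synthesis genes, 2 were above 0 and 3 below. GOLS1, a galactinol synthase that makes the donor for raffinose sugars, had 2.82, 2.996 and 3.18 CPM with ethylene and 184, 161 and 188 CPM in water at 24 h, against 15.4 and 12.5 CPM with ethylene and 151, 159.9 and 185 CPM in water at 16 h, with a change of -2.32 ± 0.16 (edgeR adjusted p = 2.1e-12). GOLS2 changed by -1.86 and the raffinose-family gene SIP2 by 0.52. Of 7 sugar transporter genes, 4 were above 0 and 2 below, and their median of 0.63 was -0.15 with the filter of 1 CPM in 3 libraries. SUC1, a sucrose carrier, had 177, 173 and 176 CPM with ethylene and 26.1, 33.1 and 24.9 CPM in water at 24 h, against 78.0 and 84.8 CPM with ethylene and 7.32, 3.55 and 4.04 CPM in water at 16 h and narrowed by -1.40, while SWEET15 widened by 1.36. SUC1 and SIP2 did not pass with the left-out library included (edgeR adjusted p = 0.51 and 0.072). Of 10 heat shock genes, 5 were below 0 and 2 above, with a median of -0.57. HSP17.6A and HSP17.4, small heat shock protein genes of seeds, were lower with ethylene and widened by -1.31 and -1.01; HSP70B changed by -0.65, or by -0.41 without ethylene 16 h replicate 1, which did not pass (edgeR adjusted p = 0.066). Of 6 nitrate genes, 1 was below 0 and 1 above, and NLP8, a nitrate-responsive factor that acts in seed germination, had 76.9, 74.0 and 82.6 CPM with ethylene and 185, 172 and 190.4 CPM in water at 24 h, against 201 and 199.5 CPM with ethylene and 210.2, 211 and 221 CPM in water at 16 h, so that an effect of -1.23 at 24 h stood against -0.10 at 16 h. The 1 above was NIR1 (0.60), which did not pass without any 1 of 8 libraries.

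Among 12 clock genes, 4 were below 0 and 0 above, and up to 2 were above 0 when a library was left out. RVE8, a morning-phase activator, had 5.82, 5.16 and 4.60 CPM with ethylene and 72.8, 67.3 and 72.0 CPM in water at 24 h, against 13.6 and 14.2 CPM with ethylene and 63.7, 70.0 and 70.6 CPM in water at 16 h, with a change of -1.47 ± 0.11 (edgeR adjusted p = 1.5e-11), and TOC1, ELF4 and CCA1 changed by -0.53, -0.68 and -0.51. ELF4 did not pass with the left-out library included (edgeR adjusted p = 0.27). Of 10 light and greening regulators, 2 were above 0 and 2 below, against 20.3% and 20.6% of all genes. Those below were the phytochrome genes PHYA (-0.40) and PHYB (-0.34). The median of the 10 regulators, 0.13, was -0.28 with the 11 libraries alone. All 4 called genes of 8 for nucleolar ribosome assembly were below 0, among them the pseudouridine synthase gene NAP57 (-0.62), the nucleolin gene NUC-L1 (-0.41) and FIB1 (-0.50), for the methyltransferase fibrillarin. Ribosomal protein genes were above 0 in 22 of 86 and below 0 in 9, against 20.3% and 20.6% of all genes. Their median of 0.07 was -0.06 with the filter of 1 CPM in 3 libraries and -0.0021 without scaling factors. The count above 0 was 11 without ethylene 16 h replicate 1, and the count below 0 was 4 without ethylene 16 h replicate 3.

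The remaining lists had few called genes. Of 8 indole glucosinolate genes, 2 were below 0 and 0 above, and 5 were below 0 without water 16 h replicate 1; the regulator gene MYB34 narrowed by -0.62. Of 4 genes of endoplasmic reticulum bodies, 2 were above 0, and 0 without ethylene 16 h replicate 1, water 16 h replicate 1 or water 24 h replicate 3. In the root tip list 1 of 13 genes was above 0 (SCR, 0.35), and in the root hair list 1 of 2 (RHD6, 0.51), which did not pass without any 1 of 7 libraries. MYB34 and RHD6 did not pass with the left-out library included (edgeR adjusted p = 0.94 and 0.21). Of 4 endo-mannanase genes, only MAN7 passed. Of 2 gibberellin inactivation genes tested, only GA2OX2 passed. None of the 9 genes in the aliphatic glucosinolate list was tested for a change, being under the minimum count. AOP3, given above, was not in that list. The sequence AAACCCTA, known as a telobox, was found on either strand in 11.2% of 517 windows of genes lower with ethylene at 24 h only, in 11.6% of 215 windows of genes higher at 16 h only, in 10.1% of 139 windows of genes reversed to lower and in 6.08% of windows of all tested genes. It was in 4.62% of 2400 windows of the widened lower class, in 1.29% of 311 windows of the narrowed lower class and in 6.27% of windows of all genes below 0.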
